A study of Mus musculus with 6 samples.

Results

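The RNAs described here are 10 long noncoding RNAs of the mouse, Neat1, Malat1, Meg3, H19, Gas5, Snhg1, Snhg6, Snhg8, Snhg12 and Epb41l4aos, counted in lung fibroblasts (LFs) exposed to TGFβ. They were chosen by gene symbol, as nuclear, imprinted and small nucleolar RNA (snoRNA) host RNAs that are often abundant, and make up 10 of the 55364 genes listed in the raw count tables. Their level of counts and earlier results of these data were known when they were chosen, so that levels are given as a description. All 10 symbols were found, and all 10 had reads. The name "abundant" went only with some of them. By mean count they ranked from 85th (Gas5) to 11352nd (H19) of the genes listed, Malat1, Neat1 and Epb41l4aos were at 4609th, 3593rd and 3486th, and H19 had 2 to 12 counts per library.

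Primary LFs came from adult C57Bl6/J mice, and all 6 libraries were made from LFs kept without serum and exposed to 10 ng/ml TGFβ for 24 h. There were 3 libraries labelled WT and 3 labelled TKS5 KO, and no library of unexposed LFs was analysed here. The labels call the latter genotype a knockout of TKS5, the podosome scaffold encoded by Sh3pxd2a, whereas the paper names these LFs Tks5+/-, from littermates of the wild type carrying a whole-body allele (tm1b or tm1d, not said which) made with a Cre driven by the CMV promoter. Nothing in the labels says whether the 3 libraries of a genotype came from separate mice, so the p-values measure the spread between these libraries. Reads of Sh3pxd2a numbered 205, 190 and 284 in WT 1, WT 2 and WT 3, and 238, 258 and 260 in the TKS5 KO-labelled libraries 1, 2 and 3 (log2 fold change 0.29, adjusted p = 0.249 by edgeR). The part of the gene removed is, by the paper's description, an internal exon, and the tm1b form also carries a LacZ reporter. The paper reports reduced Tks5 mRNA in Tks5+/- LFs by Q-RT-PCR, and no such fall is seen in these counts. They cover the 3' end and not that exon, and whether they should fall with either allele was not tested. The counts thus do not show the labelled genotype, and every direction below rests on the labels alone.

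Long noncoding RNAs are transcribed, and mostly spliced and polyadenylated, without coding for a protein. The snoRNA hosts carry, in their introns, small RNAs that guide the chemical modification of ribosomal RNA, and the spliced host is often a by-product that is translated briefly and destroyed by nonsense-mediated decay (NMD). Gas5, for growth arrest-specific 5, is the textbook case, and accumulates in cells whose growth has stopped. Neat1 is the RNA scaffold of paraspeckles, and Malat1, its neighbour in the genome, gathers in nuclear speckles that hold splicing factors. Meg3 and H19 are expressed from the maternal chromosome only, and lie in imprinted clusters with Dlk1 and with Igf2. In fibroblasts these RNAs are known mostly from work on growth, stress and matrix production.

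Quant-Seq primes cDNA synthesis at poly(A) with oligo-dT, so that the counts cover transcript 3' ends and not the whole RNA. The end of a transcript therefore decides what can be counted, and the last 30 bases of the transcripts that matter most here are printed in the sense of the RNA. Capitals mark the polyadenylation signals AATAAA or ATTAAA, searched on the transcript strand only. Coordinates and transcript names are those of GENCODE M21 on GRCm38.
Neat1-202, 3004 bases, chr19:5842307-5842336, reverse strand: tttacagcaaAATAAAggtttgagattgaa
Neat1-201, 20771 bases, chr19:5824708-5824737, reverse strand: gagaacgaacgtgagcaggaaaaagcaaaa
Malat1-201, 6983 bases, chr19:5795690-5795719, reverse strand: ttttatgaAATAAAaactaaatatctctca
Snhg6-205, 816 bases, chr1:9942023-9942052, reverse strand: agttatatataAATAAAcagttattcttaa
Snhg8-202, 776 bases, chr3:123507555-123507584, reverse strand: tatATTAAATAAAagatgtttggtgtgtaa
Gas5-218, 2556 bases, chr1:161038510-161038539, forward strand: ttttaccATTAAAgtgtattataacatgaa
Both signals overlap in Snhg8. Over all annotated transcripts of at least 30 bases, 29.6% of 141722 held either signal in their last 30 bases. Among the transcripts of Neat1 the short Neat1-202 held one and the full-length Neat1-201 did not (1 of 4 annotated transcripts), while 5 of 5 of Snhg6, 3 of 3 of Snhg8, 8 of 10 of Snhg12, 16 of 25 of Gas5 and 10 of 18 of Snhg1 did. As background, the long form of Neat1 and the mature Malat1 are known to end by RNase P cleavage without a classical poly(A) tail. That leaves the short Neat1, and any A-rich stretches inside these RNAs, for oligo-dT. No annotated transcript of Neat1 held a run of 8 or more A. Malat1-201 held 1 such run, shown with its 12 A in capitals, which starts at base 6674, 310 bases from the end.
Malat1-201, chr19:5795979-5796008, reverse strand: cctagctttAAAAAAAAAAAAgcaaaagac
The tables give 1 value per gene, so the forms of Neat1, or an internal site against a true end, cannot be told apart in them.

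The 5' starts are shown because several snoRNA hosts are known to begin with a run of pyrimidines, the feature called 5'TOP that they share with ribosomal protein genes. RefSeq (GRCm38.p6) had a start for 6 of the 10 genes, and none was used for Neat1, H19, Snhg6 and Epb41l4aos. The windows hold 10 bases before the annotated first base and 20 from it, with the unbroken C or T run over the first base in capitals.
Gas5, chr1:161035156-161035185, forward strand: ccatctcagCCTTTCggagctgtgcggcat
Snhg12, chr4:132308668-132308697, forward strand: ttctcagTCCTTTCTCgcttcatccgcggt
Snhg8, chr3:123508317-123508346, reverse strand: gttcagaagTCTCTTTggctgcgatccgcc
Snhg1, chr19:8723477-8723506, forward strand: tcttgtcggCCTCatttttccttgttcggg
Malat1, chr19:5802653-5802682, reverse strand: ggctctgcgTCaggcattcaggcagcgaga
In Gas5, Snhg12 and Snhg8 the first 5 bases were all C or T, and in Snhg1, Malat1 and Meg3 they were not. This held for 4.44% of 32851 start windows and for 23.3% of 73 windows of cytosolic ribosomal protein genes. Gas5 has another annotated start without such a run. The feature is described only. The 403 tested genes with such a start had a median log2 fold change of 0.0044, with 26.8% called higher and 20.3% lower. For 7195 genes without it these were -0.096, 20.7% and 23.5%. As the rule met only 23.3% of the ribosomal protein windows, this comparison does not separate 5'TOP genes from others, and nothing is read from it.

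Total counts were 1344507 to 2369882 in WT and 1979084 to 2329155 in the TKS5 KO-labelled libraries, of which the 10 RNAs held 0.166% to 0.347%. The CPM used below is a count divided by the TMM-scaled library size. Genes are said to be called when the adjusted p over all genes tested is below 0.05 with a change of 1.2-fold or more. Of 10346 genes tested, 2356 were called higher (22.8%) and 2286 lower (22.1%) in the TKS5 KO-labelled libraries, 44.9% in all, and scaling by library totals alone turned this into 1362 higher and 3944 lower. LF markers were high in every library, and 10 of 10 fibroblast markers were tested. Their summed level was 5150 to 6510 CPM in WT and 5990 to 9210 in the TKS5 KO-labelled libraries. By log2 fold change 4 were called higher, Thy1 (1.93), Vim (1.27), Pdgfra (0.69) and Col3a1 (0.64). Fn1 (-1.55) and Pdgfrb (-0.996), 2 of the 10, were called lower. The overlapping sums thus hide changes in opposite directions. WT replicate 3 stood apart in the 10 macrophage markers, with a summed 2080 CPM beside 413 and 348 in WT replicates 1 and 2 and 121 to 135 in the TKS5 KO-labelled libraries. Values without it are given where they change a result.

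Of the 10 RNAs, 9 passed the filter on low counts and H19 did not. All 6 snoRNA hosts were called higher in the TKS5 KO-labelled libraries (22.8% of all genes were), Neat1 was called lower (22.1% of all genes were), and Malat1 and Meg3 were not called. The median log2 fold change of the 9 was 1.14, beside -0.046 over all genes tested. The libraries of both groups did not overlap for 7 of the 9, as for 53.8% of all tested genes, and an exact two-sided permutation test of the CPM then gives 0.1, the smallest p that 3 libraries against 3 allow.

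**Figure D1:**
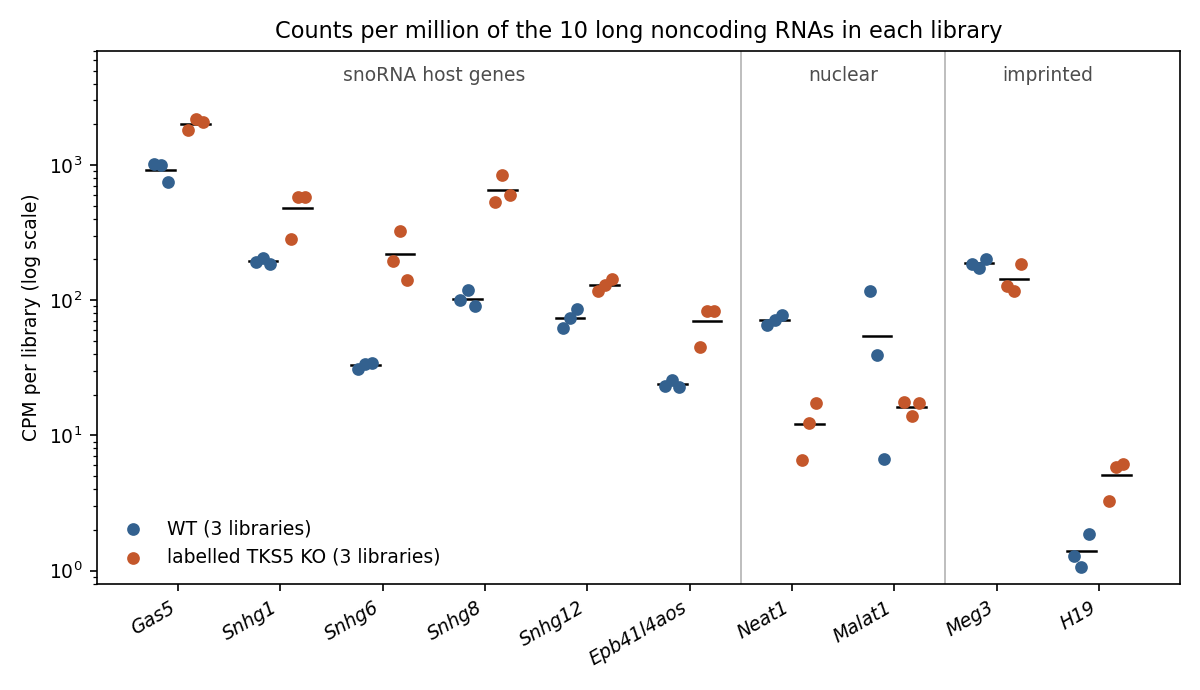
CPM of each RNA in each library on a log axis, with WT in blue, the TKS5 KO-labelled libraries in orange and group means as black lines (3 libraries a group). The orange points lie above the blue ones for the 6 snoRNA hosts and for H19, and below them for Neat1, while the points of Malat1 and Meg3 overlap.

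Snhg8 hosts Snora24 and lies on chromosome 3 (123507552 to 123508404, reverse strand, ENSMUSG00000104960). WT 1, WT 2 and WT 3 gave 156, 220 and 243 counts of it, against 967, 1442 and 1164 in the TKS5 KO-labelled libraries. Every TKS5 KO-labelled library was thus far above every WT library. The level went from 103 ± 14.0 CPM (SD, n = 3) to 657 ± 165 (SD, n = 3), a 6.39-fold difference of means, or 2.68 on the log2 scale (SE 0.23, edgeR adjusted p = 1.29e-08).

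Snhg6 hosts Snord87 on chromosome 1 (9941959 to 9944118, reverse strand, ENSMUSG00000098234). Its counts were 48, 63 and 93 in WT and 355, 558 and 278 in the TKS5 KO-labelled libraries. The WT libraries were close together once scaled, at 30.9 to 34.5 CPM, and the others spread from 142 to 327 CPM. Means were 33.0 ± 1.89 and 221 ± 94.9 CPM (SD, n = 3), and the log2 fold change was 2.74 (SE 0.27, edgeR adjusted p = 9.38e-08).

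Gas5 holds 10 annotated snoRNA genes on chromosome 1 (161034422 to 161038539, forward strand, ENSMUSG00000053332), and ranked 85th of 55364 by mean count. The counts were 1580, 1855 and 2031 in WT, and 3297, 3720 and 4087 in the TKS5 KO-labelled libraries. The groups did not overlap, at 753 to 1020 CPM and 1810 to 2180 CPM. Means of 921 ± 146 and 2026 ± 192 CPM (SD, n = 3) gave a log2 fold change of 1.14 (SE 0.21, 95% interval 0.71 to 1.57, edgeR adjusted p = 1.34e-04). With the authors' normalized counts in place of the raw counts it was 0.39 and not called (adjusted p = 0.12 by limma).

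Snhg1 holds 8 snoRNA genes and lies on chromosome 19 (8723475 to 8726443, forward strand, ENSMUSG00000108414). Its counts were 299, 384 and 496 in WT and 519, 992 and 1128 in the TKS5 KO-labelled libraries. Replicate 1 of the latter, at 285 CPM, was well under the other 2, at 580 and 577 CPM, and still above the highest WT library, at 205 CPM. On the log2 scale the change was 1.31 (SE 0.24, edgeR adjusted p = 1.39e-04).

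Epb41l4aos, transcribed opposite the Epb41l4a locus on chromosome 18 (33794892 to 33795986, forward strand, ENSMUSG00000087590), hosts 1 snoRNA. It had 36, 48 and 61 counts in WT and 82, 142 and 162 in the TKS5 KO-labelled libraries. Here too replicate 1 was the lowest of the TKS5 KO-labelled libraries, at 45.0 CPM beside 83.1 and 82.9 CPM. Means were 23.8 ± 1.63 and 70.3 ± 21.9 CPM (SD, n = 3), a log2 fold change of 1.56 (SE 0.26, edgeR adjusted p = 3.99e-05).

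Snhg12 holds 5 snoRNA genes on chromosome 4 (132308623 to 132311024, forward strand, ENSMUSG00000086290), and had the smallest difference of the 6 hosts. Its counts were 97, 138 and 233 in WT and 214, 223 and 281 in the TKS5 KO-labelled libraries. On the CPM scale the highest WT library, at 86.4 CPM, stayed under the lowest of the others, at 117 CPM. The log2 fold change was 0.81 (SE 0.21, 95% interval 0.38 to 1.24, edgeR adjusted p = 0.00318). It was not called with scaling by library totals (0.38, adjusted p = 0.13) or with a correction for transcript length (0.49, adjusted p = 0.058).

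Ratios within a library need no scaling, and they differed between hosts. Snhg8 had 9.87, 11.9 and 12.0 counts for every 100 counts of Gas5 in WT 1, WT 2 and WT 3, and 29.3, 38.8 and 28.5 in those labelled TKS5 KO. Snhg6 had 3.04, 3.40 and 4.58 for every 100 of Gas5 in WT and 10.8, 15.0 and 6.80 in those labelled TKS5 KO. For both, each TKS5 KO-labelled library was above each WT library. Snhg12 per 100 Gas5 was 6.14 to 11.5 in WT and 5.99 to 6.88 in the TKS5 KO-labelled libraries, and Snhg1 was 18.9 to 24.4 and 15.7 to 27.6, so that these 2 ratios overlapped between the groups. The summed level of the 6 hosts was 1426, 1449 and 1171 CPM in WT and 2982, 4141 and 3633 CPM in the TKS5 KO-labelled libraries.

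The snoRNA genes inside the hosts are listed as genes of their own, and 26 such genes lie within the 6 hosts on the same strand. All 26 had a read, 16 were tested, and all 16 were called higher in the TKS5 KO-labelled libraries, with log2 fold changes of 0.76 to 2.91. Of all 78 tested snoRNA genes of the genome, 68 were called higher and 0 lower, with a median of 1.5. Over all genes tested 22.8% were called higher and 22.1% lower. The longest transcripts of the 78 had a median of 87 bases. Among all tested genes of up to 1000 bases 56.0% were called higher and 5.73% lower. The part of length in the snoRNA calls was not tested. Mature snoRNAs carry no poly(A) tail, and the values of the 16 are not independent of the hosts. Snord80 and Snora16a are each listed under a pair of identifiers, and the counts of each pair were identical in all 6 libraries, so the same read could be counted for more than 1 gene. Snord87 had 98, 99 and 114 counts in WT and 622, 1058 and 436 in the TKS5 KO-labelled libraries, more than its host Snhg6 in 6 of 6 libraries. Snora24 exceeded its host Snhg8 in the same way, with 172, 243 and 272 counts against 1134, 1708 and 1304.

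Counts were also listed on the other strand. Mcmdc2, a protein-coding gene that overlaps Snhg6 on the opposite strand, had 148, 168 and 254 counts in WT and 1015, 1561 and 782 in the TKS5 KO-labelled libraries, more than Snhg6 in each library. At 2.74 (SE 0.26, edgeR adjusted p = 6.13e-08), it differed as much as Snhg6 did. Whether the counting used strand is not given in the sources used here, so reads of Snhg6 and Mcmdc2 cannot be told apart. Zbtb37, opposite Gas5, had at most 10 counts in any library.

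The 6 hosts are part of a larger class. By annotation alone, 19 tested noncoding genes hold a snoRNA gene on the same strand. Of the 13 that are not among the 10 RNAs here, 10 were called higher and 0 lower in the TKS5 KO-labelled libraries, with a median log2 fold change of 1.43. Over all genes tested 22.8% were called higher and 22.1% lower. Among genes with a longest transcript of up to 1000 bases, as several of these hosts have, it was 56.0% and 5.73%. The part of length in these calls was not tested. The 3 not called were Snhg18 (0.69), Snhg15 (0.55) and Snhg9 (-0.11). Snhg3 had the largest difference, from 13.5 ± 3.44 to 106 ± 18.7 CPM (SD, n = 3; log2 fold change 2.97, adjusted p = 1.29e-08 by edgeR), with 16, 32 and 35 counts against 155, 205 and 223. Zfas1, host of 3 snoRNAs, had 1.53, Snhg5 1.21 and Dancr 1.69, all called. Cct6a, also in this class by its annotation as noncoding, is known for its chaperonin protein. Over 139 tested long noncoding genes without a snoRNA gene, 43 were called higher and 25 lower, with a median of 0.24.

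**Figure D2:**
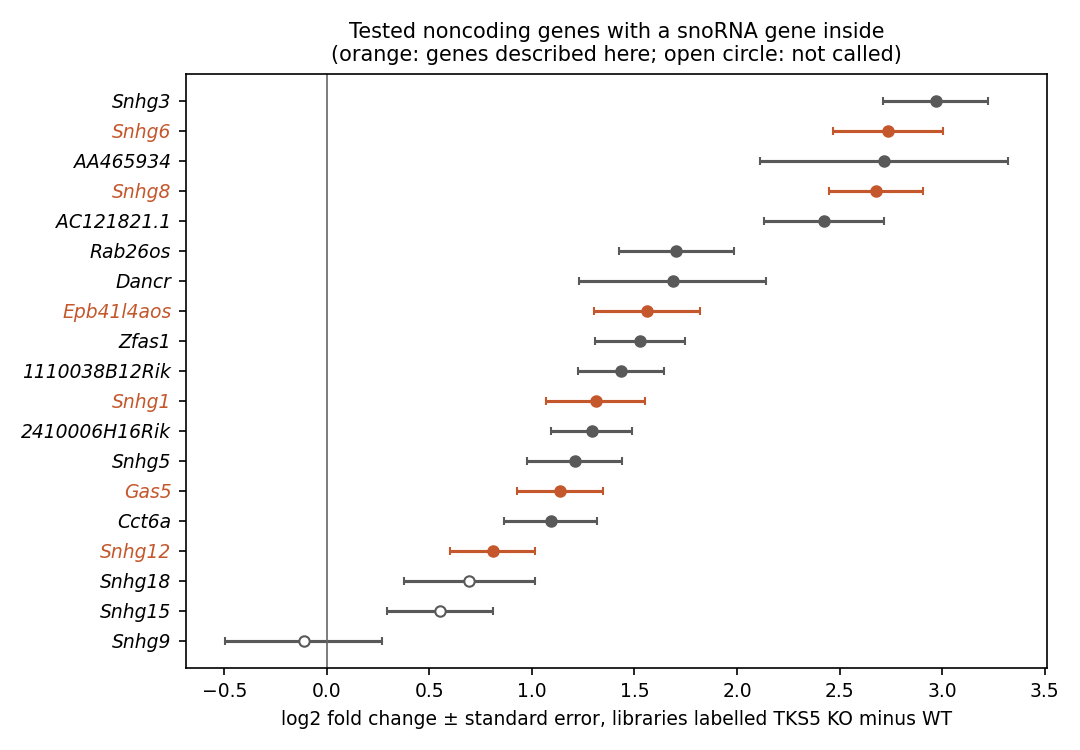
Log2 fold change with its standard error of the 19 tested noncoding genes that hold a snoRNA gene, sorted by value, with the hosts described here in orange and genes not called as open circles. The 6 hosts lie between 0.81 and 2.74, among the others, and Snhg9 (-0.11) is the only one left of 0.

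A list of 40 other hosts from textbook knowledge also holds protein-coding genes and some of the genes above. Of 33 tested, 19 were called higher and 5 lower, with a median of 0.69, beside 22.8% and 22.1% of all genes tested. Rpsa and Rpl23a, both of the ribosome, rose from 838 ± 78.0 to 2864 ± 490 CPM and from 241 ± 15.9 to 714 ± 77.5 CPM (SD, n = 3). Ncl, which encodes nucleolin and hosts snoRNAs too, fell from 1218 ± 112 to 448 ± 95.7 CPM (SD, n = 3; log2 fold change -1.44). Tnpo2, Nol6 and Gnl3 were also called lower, at -1.20, -1.29 and -0.82. Host genes did not all move one way. The longest transcripts of Rpsa and Rpl23a have 1938 and 588 bases. Those of Ncl, Tnpo2, Nol6 and Gnl3 have 8202, 5669, 4599 and 2264. The part of length in these differences was not tested.

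Of 18 tested genes of snoRNP and nucleolar box proteins 5 were called higher and 5 lower, near the share over all genes (22.8% and 22.1%), with a median of -0.015, and with library totals 2 were higher and 8 lower. Snu13 (1.56) and Nop10 (1.52), core proteins of the box C/D and H/ACA particles, and Nop56 (0.60) were higher, and Nop58 (-0.92) and Naf1 (-0.93), an assembly factor, were lower. Of 13 tested genes for NMD 4 were called higher and 5 lower, with a median of -0.52, beside 22.8% and 22.1% of all genes tested. With library totals 3 of these were higher and 7 lower. Magoh (1.97), Magohb (1.86) and Rbm8a (0.91), of the exon junction complex, rose. Smg1 (-2.77), the kinase of the pathway, Smg5 (-1.17) and Upf3b (-1.90) fell. The longest transcripts of the first 3 have 692, 897 and 2757 bases. Those of Smg1, Smg5 and Upf3b have 15557, 4448 and 2553. The part of length in these differences was not tested.

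Neat1 lies on chromosome 19 (5824708 to 5845478, reverse strand, ENSMUSG00000092274), and its row overlaps no gene with more than 1 count in a library. Its reads numbered 101, 134 and 208 in WT, and 12, 21 and 34 in the TKS5 KO-labelled libraries. WT libraries were tightly grouped at 65.0, 71.7 and 77.1 CPM, and the highest of the others reached 17.4 CPM. From 71.3 ± 6.07 to 12.1 ± 5.41 CPM (SD, n = 3), Neat1 was 5.90-fold lower in the TKS5 KO-labelled libraries, a log2 fold change of -2.55 (SE 0.28, 95% interval -3.14 to -1.96, edgeR adjusted p = 3.64e-07). Neat1 was called lower under all 21 alternative settings, at -2.98 to -1.51.

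Malat1 (chromosome 19, 5795690 to 5802672, reverse strand, ENSMUSG00000092341) varied most between libraries of a group. WT replicates 1, 2 and 3 had 181, 73 and 18 counts, which is 116, 39.1 and 6.67 CPM. The TKS5 KO-labelled libraries had 32, 24 and 34 counts, or 17.6, 14.0 and 17.4 CPM. WT replicate 3 was thus below, and WT replicates 1 and 2 above, all TKS5 KO-labelled libraries. The log2 fold change was -1.67 with an SE of 1.11 (95% interval -4.67 to 1.32, adjusted p = 0.294 by edgeR; exact permutation p = 0.4). Without WT replicate 3 it was -2.24 and called (adjusted p = 6.06e-05), and without WT replicate 1 it was -0.43. WT replicate 3 is also the library with the most macrophage marker counts, and the part of those in the Malat1 value was not tested. The opposite-strand gene Gm37376 followed the same order in WT, with 122, 20 and 10 counts, and had 27, 10 and 3 in the TKS5 KO-labelled libraries.

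The distance between these neighbours therefore differed from library to library. Malat1 had 179, 54.5 and 8.65 counts per 100 of Neat1 in WT, and 267, 114 and 100 in the TKS5 KO-labelled libraries. Neat1 had 35.2, 41.4 and 38.1 counts per 100 of Meg3 in WT and 5.17, 10.6 and 9.34 in those labelled TKS5 KO, with no overlap.

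**Figure D3:**
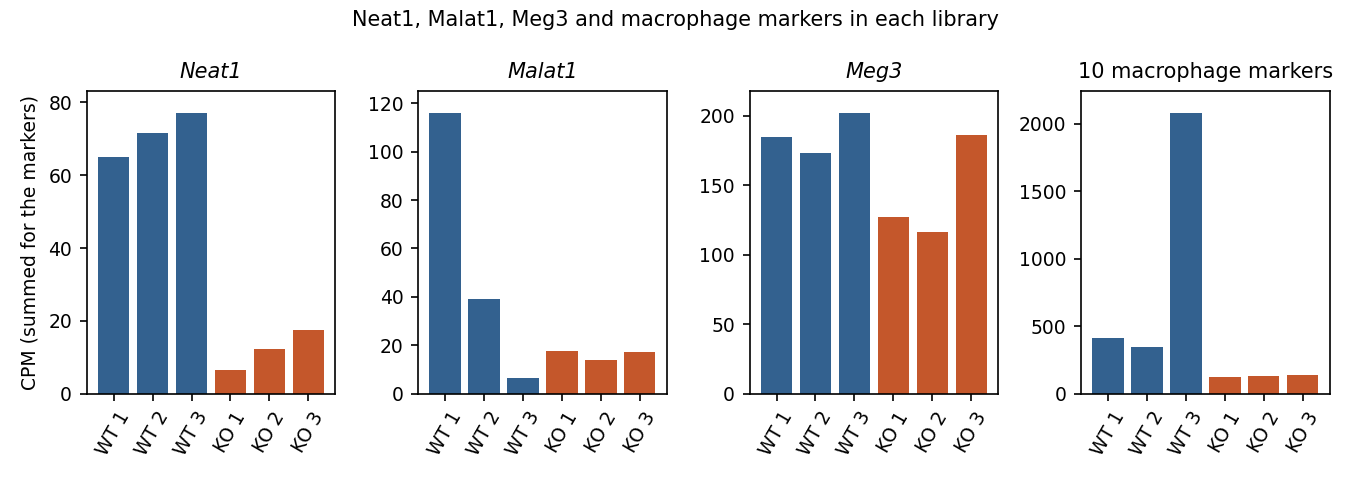
CPM of Neat1, Malat1 and Meg3 and the summed CPM of 10 macrophage markers in each library, with WT in blue and the TKS5 KO-labelled libraries (KO) in orange; each panel starts at 0 with its own scale. Neat1 is even within WT (65.0 to 77.1 CPM), Malat1 ranges from 6.67 to 116 CPM over the same libraries, and the markers peak in WT replicate 3 (2080 CPM).

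The calls among protein genes of paraspeckles and speckles were near the share over all genes (22.8% higher and 22.1% lower), and nothing is read from them about these groups. Of 32 tested paraspeckle genes 7 were called higher and 6 lower, with a median of -0.30. Nono, which binds Neat1 at the core of the paraspeckle, rose from 159 ± 7.42 to 289 ± 77.6 CPM (SD, n = 3; log2 fold change 0.86), and Nudt21, a cleavage factor for 3' ends, had 2.12, while Matr3 had -1.11. Of 27 tested speckle genes 6 were higher and 5 lower, with a median of -0.037. With library totals these were 3 higher and 13 lower, and 3 higher and 10 lower, and with length and GC correction the paraspeckle genes were 5 higher and 2 lower. Among the speckle genes the splicing factors Srsf7 (1.67), Srsf3 (1.15), Srsf2 (1.01) and Srsf1 (0.83) rose, and Luc7l3 (-1.92), Bclaf1 (-1.27) and Acin1 (-1.35) fell. Of 21 tested genes around Neat1 and Malat1 on chromosome 19, 4 were called higher, Fau (1.39) with the smallest adjusted p, and 6 lower, Capn1 (-1.28) with the smallest, with a median of -0.13. This too is near the share over all genes, and it turned with the setting, to 6 higher and 1 lower with length and GC correction and 1 higher and 7 lower with library totals.

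Meg3 (chromosome 12, 109541001 to 109571726, forward strand, ENSMUSG00000021268) had 287, 324 and 546 counts in WT and 232, 198 and 364 in the TKS5 KO-labelled libraries. Replicate 3 of the latter, at 186 CPM, lay among the WT libraries (173 to 202 CPM), and the other 2, at 127 and 116 CPM, below them. Means were 187 ± 14.7 and 143 ± 37.8 CPM (SD, n = 3). The log2 fold change was -0.38 (SE 0.21, 95% interval -0.83 to 0.06, adjusted p = 0.149 by edgeR; exact permutation p = 0.3), and a correction for transcript length turned it to 0.48, not called.

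H19 (chromosome 7, 142575529 to 142578143, reverse strand, ENSMUSG00000000031), an RNA abundant in the embryo and low in most adult tissues, had 2, 2 and 5 counts in WT and 6, 10 and 12 in the TKS5 KO-labelled libraries. The groups did not overlap, at 1.40 ± 0.405 and 5.09 ± 1.57 CPM (SD, n = 3). A count of 0 allows up to 3 counts, which is 1.11 to 1.93 CPM here, so that the 2 counts of WT 1 and of WT 2 were under that limit, and the 5 counts of WT 3 above it. It failed the filter on low counts. Without that filter its log2 fold change was 1.76 (adjusted p = 0.058 by edgeR).

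Other imprinted genes are given by their values. Mirg, which lies downstream of Meg3 in the same cluster, rose from 9, 9 and 21 counts to 41, 46 and 71 (log2 fold change 2.18, adjusted p = 1.70e-05 by edgeR). Rian, between them, had 1, 4 and 5 counts against 5, 7 and 8, and Dlk1, the coding gene of the cluster, had at most 6 counts in any library. Neither could be tested. Igf2, the growth factor gene next to H19, had 23, 9 and 16 counts in WT and 13, 4 and 4 in the TKS5 KO-labelled libraries (log2 fold change -1.08, adjusted p = 0.108 by edgeR). Of 19 tested imprinted genes 6 were called higher, among them Commd1 (2.58), Slc38a4 (3.10) and Peg3 (1.55), and 4 lower, Tssc4 (-1.33), Dhcr7 (-1.69), Impact (-1.17) and Ube3a (-0.80). Their median was -0.076, the counts were not far from the share over all genes (22.8% and 22.1%), and with library totals 3 were higher and 6 lower.

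Other well-known long noncoding RNAs were mostly too low. Of 43 in the list 35 were matched, 7 of these had no count in any library, and 8 were tested. Of the 8, 5 were called higher and 2 lower, beside 22.8% and 22.1% of all genes tested. With library totals 3 were higher and 2 lower. Only 4 had at least 10 counts in every library, and with that filter 3 were higher and 0 lower. Dnm3os, which carries microRNAs and is transcribed opposite Dnm3, rose from 35, 52 and 107 counts to 103, 113 and 229 (log2 fold change 1.39). Mir22hg and Lockd had 0.90 and 2.62. Lockd was low, with 4, 1 and 7 counts in WT and 19, 24 and 24 in the TKS5 KO-labelled libraries. Firre, an X-linked RNA of nuclear organisation, fell with 11, 15 and 15 counts against 3, 1 and 1 (-2.81), and Peg13 fell by 1.62 on the log2 scale. Over all 158 tested genes of long noncoding classes 37.3% were called higher and 15.8% lower, with a median of 0.34.

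**Figure D4:**
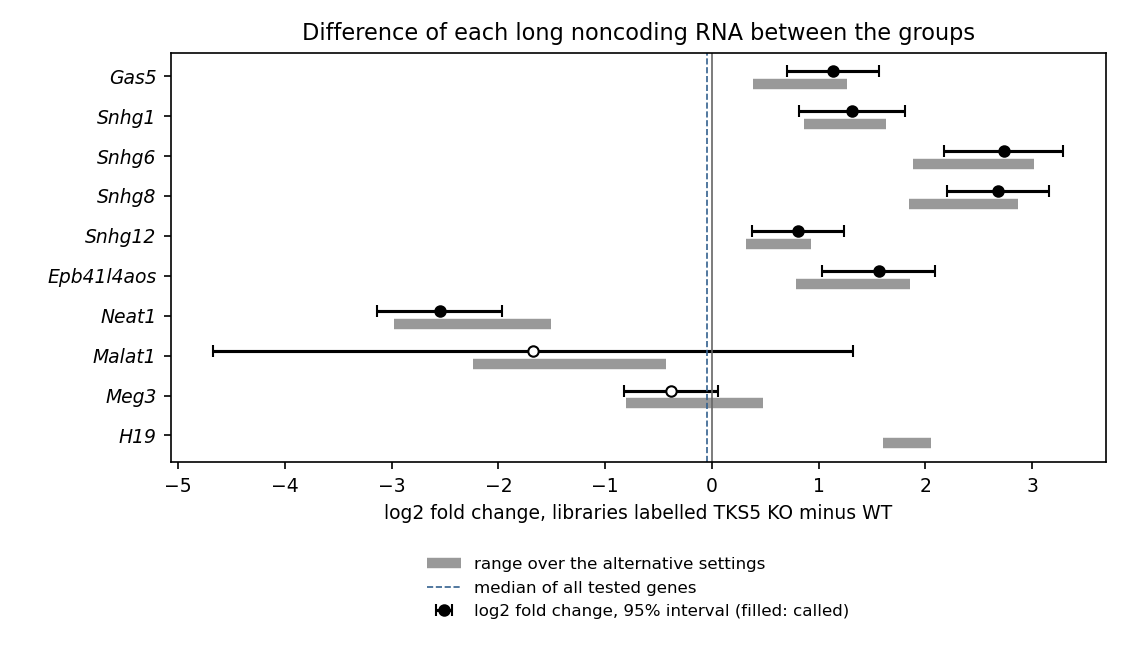
Log2 fold change of each RNA (TKS5 KO-labelled libraries minus WT) with its 95% interval in black, filled where called, and the range over the alternative settings in grey; H19 could be tested only without the filter on low counts and in some alternatives. The 6 hosts lie right of 0 under each setting and Neat1 left of it, while the range of Meg3 crosses 0 (-0.81 to 0.48) and the interval of Malat1 spans -4.67 to 1.32.

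Transcript length moved with these differences. Across the 10339 tested genes with a length, the log2 fold change fell with the length of the longest annotated transcript (Spearman's rho -0.397, a description across genes, which share the same libraries). Genes of up to 1000 bases had a median of 0.85, with 56.0% called higher and 5.73% lower, and genes over 8000 bases had -0.71, with 4.74% and 46.4%. By that length Snhg6, Snhg8 and Epb41l4aos, at 816, 776 and 430 bases, belong to the shortest class, and Snhg12 at 1538 bases to the next. Gas5 and Snhg1 belong to that of 2000 to 4000 bases, whose median was -0.032. Meg3 and Neat1, at 14548 and 20771 bases, belong to the longest. Most other annotated forms of Gas5 and Snhg1 are under 1000 bases, and Neat1-202 has 3004. The form counted cannot be told from 1 value per gene, so its class may be another.

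**Figure D5:**
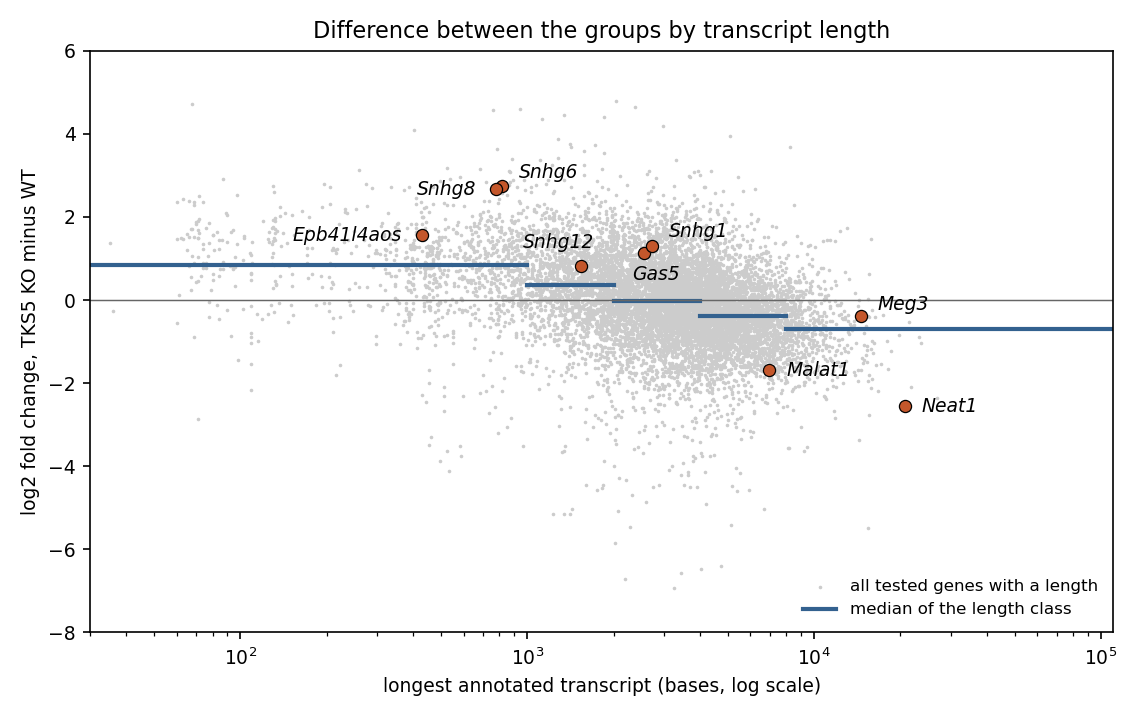
Log2 fold change of every tested gene with a length (grey) against its longest annotated transcript in bases on a log axis, with the median of each length class as a blue line and the tested RNAs of this report in orange. Snhg6, Snhg8, Gas5 and Snhg1 lie above the median of their class and Neat1 (-2.55) below that of the longest class (-0.71).

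When each library was corrected for its trend with length, Snhg6 had 2.14, Snhg8 2.07, Snhg1 1.30, Gas5 1.1, Epb41l4aos 0.79 (adjusted p = 0.0141 by edgeR) and Neat1 -1.51 (adjusted p = 4.04e-04), all still called. Snhg12 was not called and Meg3 changed sign, as given above. The correction takes the longest annotated transcript of each gene. By that length Gas5 and Snhg1 fall in the class with a median of -0.032, where it moves values little. What a correction by the length of the forms counted would give was not tested. Scaling by library totals moved the median of all genes to -0.47. Gas5 was then at 0.71 and Snhg8 at 2.24, both called, and Meg3 was called lower at -0.81. Relative to the median of all genes these were 1.18, 2.71 and -0.34, beside 1.18, 2.72 and -0.34 with TMM scaling, so that this scaling moved them about as far as the median of all genes.

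Markers of other cells moved with the groups too. Of 9 tested macrophage markers 0 were called higher and 6 lower in the TKS5 KO-labelled libraries, beside 22.8% and 22.1% of all genes tested. Adgre1, which had 7, 10 and 34 counts in WT, was at 0 in all 3 TKS5 KO-labelled libraries. Summed endothelial markers (7 genes) were 112 to 132 CPM in WT and 45.6 to 60.4 CPM in the TKS5 KO-labelled libraries, with Pecam1 at 7, 10 and 21 counts against 0. Summed mesothelial markers (5 genes) were 20.9 to 25.1 and 3.58 to 12.1 CPM. Summed smooth muscle markers (6 genes) were 4790 to 5700 and 6240 to 7120 CPM, but 2 of the 5 tested were called higher, Tagln (1.99) and Cnn1, and 2 lower, Myh11 (-1.27) and Des (-1.45), and Tagln alone rose by more than the sum did. Epithelial ones were 26.2 to 54.9 and 29.2 to 62.0 CPM, with 4 of 9 at 0 in every library. Of the 2 tested, Ager was called higher (1.82) and Cldn4 lower (-4.51), so the overlapping sums hide changes in opposite directions. In bulk RNA fewer cells of a type and less RNA per cell cannot be told apart, and the part of these cells in the values of the long noncoding RNAs was not tested. Without WT replicate 3, the library richest in macrophage markers, Neat1 was at -2.49 and the 6 hosts at 0.93 to 2.76, all called. WT replicates 1 and 2 still held 413 and 348 CPM of these markers, beside 121 to 135 CPM in the TKS5 KO-labelled libraries. Leaving out WT replicate 3 thus does not remove the difference in markers of other cells.

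Per kilobase of the longest transcript, the order in WT was Gas5 (360 CPM per kb), Snhg8 (132), Snhg1 (71.1), Epb41l4aos (55.4), Snhg12 (48.3), Snhg6 (40.5), Meg3 (12.8), Malat1 (7.74), Neat1 (3.43) and H19 (0.614). Epb41l4aos and Snhg12, Snhg12 and Snhg6, and Malat1 with both Meg3 and Neat1 overlapped between libraries. In the TKS5 KO-labelled libraries the order was Snhg8 (846 CPM per kb), Gas5 (793), Snhg6 (271), Snhg1 (176), Epb41l4aos (164), Snhg12 (84.9), Meg3 (9.84), Malat1 (2.34), H19 (2.23) and Neat1 (0.582), where Snhg8 overlapped with Gas5, Snhg6, Snhg1 and Epb41l4aos with one another, and Malat1 with H19. Counts of 3' ends do not grow with transcript length, so this division places the long RNAs low.

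Of 5184 genes with a mean of at least 50 counts, the log2 CPM of Sfn, a 14-3-3 protein, was most like that of Neat1 over the 6 libraries (Pearson's r = 0.9988), with 170, 257 and 455 counts in WT and 11, 23 and 41 in the TKS5 KO-labelled libraries. Tnpo1 (0.9938), Nacc1 and Rc3h2 (both 0.9907) were also among the most alike, and 154 genes had an r over 0.95. For Gas5 the nearest were 1700120C14Rik (0.9991), Mtfr1l (0.997), Selenok (0.9953), Gm7332 (0.995) and Rpl10a (0.9946), a ribosomal protein gene, and 502 genes had an r over 0.95. These correlations share their 6 libraries and the difference between the groups, and are given as a description.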

How the data were processed

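Raw counts per gene were deposited for 6 Quant-Seq libraries. Reads were trimmed (Trim Galore) and aligned to GRCm38 by the authors, with HISAT2 and, for the remainder, Bowtie2, and counted in 3' UTR regions widened to a minimum length with metaseqR2, then summed per gene. How regions were set for noncoding genes is not given in the sources used here. The deposited table of normalized counts, made by the authors with EDASeq and rounded, was treated as a score and used only as an alternative. Of 55364 genes listed, 55104 matched GENCODE M21.

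Counts were tested by edgeR 4.0.16 under R 4.3.3 (low counts removed by filterByExpr, TMM, robust quasi-likelihood F test, Benjamini-Hochberg over 10346 genes). The study combined several tests by PANDORA, which was not run here. The standard errors and 95% intervals come from the fit. The script was tested on simulated data. Replicates were different libraries (chi-square per degree of freedom 3.9 to 10.37 between replicates). Alternatives were RLE, upper-quartile and total scaling, DESeq2 1.42.0, limma-voom and limma 3.58.1 on log2 of the normalized counts plus 1, filters of no minimum and of 10 counts, call rules without the fold threshold or against a fold change of 1.2, corrections for length and GC (loess with a span of 0.5 and a prior count of 2), a block for the replicate number, and leaving out each library. Other software was scipy 1.17.1, matplotlib 3.10.9, pandas 2.3.3 and numpy 2.4.6.

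The 10 RNAs and all gene lists were chosen with earlier results of these data known. Genes named were the 10 RNAs, up to 4 called genes per list and direction with the smallest adjusted p, Igf2, Dlk1, Rian, Mirg and Sh3pxd2a, and the 5 genes most like Neat1 and Gas5 in log2 CPM (mean count of at least 50), of which 1 is not reported here. Genes overlapping the 10 RNAs and the noncoding hosts Snhg5, Dancr, Snhg9, Snhg15 and Snhg18 were picked with their values in view.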

Additional observations from a re-analysis of the deposited data

How the results depend on the processing

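Neat1, Snhg1, Snhg6, Snhg8 and Epb41l4aos kept their direction and call under all 21 alternatives, with log2 fold changes of -2.98 to -1.51, 0.87 to 1.63, 1.89 to 3.02, 1.85 to 2.86 and 0.79 to 1.85. Gas5 was not called on the authors' normalized counts (0.39, adjusted p = 0.12 by limma). Snhg12 was not called with library totals (0.38), length correction (0.49), length and GC correction (0.32) or the replicate block with both corrections (0.33). Meg3 turned positive with length correction (0.48), length and GC correction (0.37) and the replicate block with both (0.34), and was called lower with library totals (-0.81) and on the authors' normalized counts (-0.59). Library totals moved the median of all genes to -0.47, and relative to the median Meg3 stayed at -0.34 and Snhg12 at 0.85. The cause of the other changes was not tested. With each library left out, the log2 fold change ran from -2.24 to -0.43 for Malat1, called only without WT replicate 3. H19 passed the filter in 3 of these 6 fits, at 1.61 to 2.05, and of the 3 it was called without TKS5 KO replicate 1 (2.05, adjusted p = 0.0152). The count of all genes called was 3705 to 5306 over the alternatives. That of the 10 RNAs was 6 to 8 over the alternatives, and 7 to 8 with a library left out. It was 6 with length correction, with length and GC correction, and with the replicate block with both. With library totals and on the authors' normalized counts 7 were called, 5 higher and 2 lower. Among the related lists, the count of genes called moved by over 1.5 times for other long noncoding RNAs with at least 10 counts in every library (3), for paraspeckle genes with length and GC correction (7, and 8 with the replicate block), and for the chromosome 19 genes with DESeq2 (5). With a library left out it was 5 to 10 for snoRNP genes and 6 to 9 for the chromosome 19 genes. Same-numbered libraries did not deviate together (correlations of -0.001, -0.064 and 0.082), so the numbers were not taken as pairs. With the replicate block 4668 genes were called, 2360 higher and 2308 lower, and no call among the 10 RNAs changed. Below 3 counts per library, as for H19 in WT replicates 1 and 2, the depth limits what can be seen.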
